A study of Homo sapiens with 8 samples.

Results

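RNA of 8 growth and stress response genes, JUN, JUNB, JUND, FOS, MYC, EGR1, IER2 and ATF4, was examined in eCLIP peak lists of the RNA-binding proteins RBFOX2 and TIA1. A peak was counted for a gene when it overlapped that gene's hg19 span, set in whole kilobases, on the gene's strand. The spans held 31 of the 4227 peaks of the RBFOX2 list and 9 of the 3215 peaks of the TIA1 list. The genes were chosen by the peaks they hold in these same lists, so the presence, number and values of the peaks are a description, and none of them was tested. No hg19 annotation was used here, and a peak was assigned to a gene by the span alone.

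All libraries were made from HEK293T, an immortal line derived from human embryonic kidney. In eCLIP RNA is crosslinked to protein with ultraviolet light (600 mJ here), immunoprecipitated and sequenced. There were 2 RBFOX2 clip libraries with 2 RBFOX2 inputs, and 2 TIA1 clip libraries with 2 TIA1 inputs, input being RNA that was not immunoprecipitated. All 8 libraries share the line and the crosslinking, the labels give no other treatment, and every clip library is labelled with an anti-HA tag antibody, although one protocol also names TIA1 beads for all libraries. No label describes the tagged proteins or how much of them the cells made. Whether the replicates are biological or technical is unclear, since the labels use both words. Each deposited list joins both replicates of a protein, so no value per replicate and no spread between libraries can be given. The log2 fold of a peak, taken as clip over input, and its −log10 p are the authors' own values. Both lists begin at a log2 fold of 3.0 and a −log10 p of about 3.01, and the −log10 p stops at 400.

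Immediate early genes are switched on by growth factors or stress without prior protein synthesis, and their mRNAs are usually short-lived. JUN, JUNB, JUND and FOS encode subunits of the transcription factor AP-1, MYC and EGR1 encode transcription factors of growth and differentiation, and IER2 encodes a small nuclear protein. ATF4 encodes the transcription factor of the integrated stress response, whose mRNA is controlled at translation by upstream reading frames. RBFOX2 is a splicing regulator that binds GCAUG, and TIA1 binds U-rich stretches and acts in splicing, in translational repression and in stress granules.

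The letters of the RBFOX element were looked up in the mRNAs themselves, because the lists give positions and no sequence. The longest protein-coding transcript of each gene in GENCODE 29 was searched on the RNA strand only for GCATG, the DNA spelling of GCAUG, and positions count from the first base of that transcript. The matches of JUN, JUND and IER2 are shown because these were the genes with an RBFOX2 peak, and those of EGR1 because it held more matches than the other 7 genes and had no peak. The GCATG is in capitals, with up to 10 bases on each side.
JUN at 1367, coding: ctgaaacagaGCATGaccctgaacc
JUN at 1679, coding: aacggggcagGCATGgtggctcccg
JUN at 2033, coding: gagaggaagcGCATGaggaaccgca
JUN at 2558, 3′ untranslated: accaagaactGCATGgacctaacat
JUN at 3333, 3′ untranslated: gtatcaagtgGCATGtgctgtgacc
JUND at 266, coding: gcggccggcaGCATGatgaagaagg
JUND at 1198, 3′ untranslated: cgcgcggggcGCATGcgcggccacc
JUND at 1401, 3′ untranslated: gggggcgagcGCATGacccccccgc
IER2 at 635, 5′ untranslated: agcgctgttaGCATGattattggtg
IER2 at 785, 5′ untranslated: ccagacgggaGCATGtgggtaggcc
IER2 at 1277, coding: tatcactcccGCATGcagcgcggtg
IER2 at 1844, coding: ccggcggacaGCATGctcaacgtgc
EGR1 at 171, 5′ untranslated: cccgcgccccGCATGtaacccggcc
EGR1 at 760, coding: ggcctagtgaGCATGaccaacccac
EGR1 at 1231, coding: aaacccagccGCATGcgcaagtacc
EGR1 at 1390, coding: tgccgcatctGCATGcgcaacttca
EGR1 at 2175, 3′ untranslated: aacttgatttGCATGgattttggat
EGR1 at 2522, 3′ untranslated: tattctcagaGCATGtgtcagagtg

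Peaks were found in 3 of the 8 genes. JUN held 26 RBFOX2 peaks and 2 TIA1 peaks. JUND held 4 RBFOX2 peaks and 7 TIA1 peaks. IER2 held 1 RBFOX2 peak and no TIA1 peak. The order of the proteins thus differed between the JUN genes, with RBFOX2 peaks more numerous in JUN and TIA1 peaks more numerous in JUND. With peaks within 50 bases joined, JUN had 7 RBFOX2 and 2 TIA1 sites. JUND then had 2 RBFOX2 and 3 TIA1 sites, so its order rests on small counts. JUNB, FOS, MYC, EGR1 and ATF4 had 0 peaks in both lists, and no span held a peak on the opposite strand in either list. The files hold no RNA levels and no read depth, so the part of low RNA in these empty spans was not tested, and a span without a peak is one without a deposited peak, not one shown to lack binding.

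**Figure D1:**
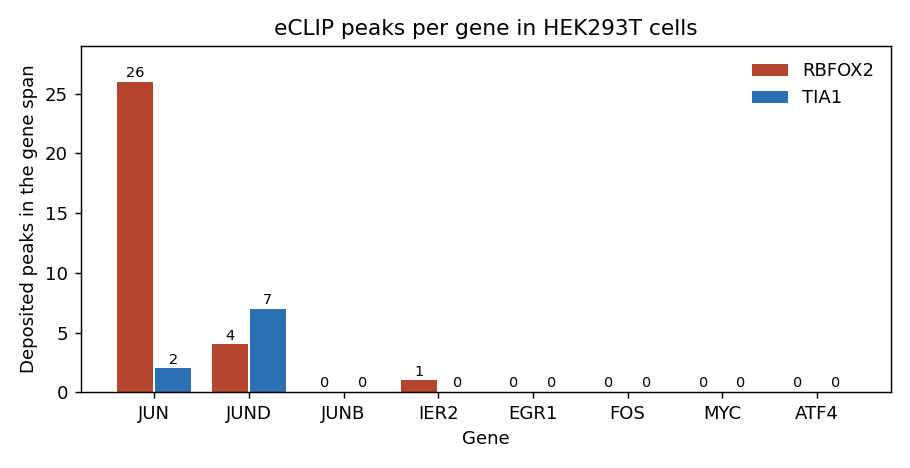
Number of deposited RBFOX2 (red, left) and TIA1 (blue, right) peaks in the span of each gene. JUN has 26 and 2, JUND 4 and 7, IER2 1 and 0, and the other 5 genes have 0 in both lists.

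JUN held more RBFOX2 peaks than any other cluster of that list. With peaks at most 1 kb apart on a strand grouped into clusters, the list formed 2218 clusters, of which 1418 held a single peak, and the JUN cluster ranked first with 26 peaks. It ran from chr1:59247515-59249571 on the minus strand and covered 776 bases of these 2057. By bases covered its rank was 3, and by the number of separate sites its rank was 2. The next clusters by number of peaks were chrX:77359333-77359820 (plus strand) with 23 peaks, chr19:47112555-47113643 (plus) with 18 and chr19:6413487-6414643 (minus) with 17. When peaks within 50 bases were joined, the chromosome X cluster formed 1 site of 488 bases, whereas the JUN peaks formed 7 sites. Number of peaks depends on how broad sites were split, since 13 of the 25 neighbouring pairs of RBFOX2 peaks in JUN abutted with no base between them.

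The RBFOX2 folds in JUN ran well above the middle of the list. Their log2 folds ranged from 3.25 to 5.02 with a median of 4.22, or 18.7-fold, against a median of 3.48, or 11.2-fold, over the whole RBFOX2 list. Of the 26 JUN peaks 16 had a log2 fold of at least 4, or 61.5% (95% Clopper-Pearson interval 40.6 to 79.8%), against 19.3% of the list. The interval covers counting only, and neighbouring peaks of 1 RNA are not independent. Among the 236 RBFOX2 clusters with at least 4 peaks, JUN ranked 25th by median log2 fold, so its fold was high but was exceeded by other loci.

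The −log10 p of the JUN peaks was also high throughout. It ranged from 23.0 to 400 with a median of 46.6, against a list median of 6.77. A value at least as high as that of the lowest JUN peak was reached by 6.84% of the list. This quantity grows with the number of reads as well as with the fold, and it is no measure of binding strength.

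Along the JUN RNA the RBFOX2 folds formed 2 crests with lower peaks between them. JUN-201, the only GENCODE transcript of JUN, has 1 exon, so distance along the genome is also distance along the RNA. Distances here are from the 5′-most base covered by a peak. The first crest lay in the second site, 266 to 537 bases along, at chr1:59249035-59249306, where 9 peaks had log2 folds from 3.65 to 5.02. The 14-base peak at chr1:59249095-59249108 had the highest fold of all 31 peaks, a log2 fold of 5.02 or 32.5-fold, and a −log10 p of 62.4. It ranked 62nd by fold in the RBFOX2 list. The 98-base peak at chr1:59249180-59249277 of the same site had the highest −log10 p, 400, with a lower log2 fold of 3.997, just under 4. It is 1 of 29 peaks of the list at that upper limit.

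The second crest lay at the 3′ end of the covered stretch, 1888 to 2057 bases along, at chr1:59247515-59247684. Its 6 peaks had log2 folds from 3.25 to 4.92 and a highest −log10 p of 67.5. The peak at chr1:59247559-59247583 had the 4.92, and the 57-base peak at chr1:59247628-59247684 of the same site had 3.25, the lowest of the 26. Between the crests, sites of 1 or 2 peaks from 630 to 1373 bases along had log2 folds from 3.65 to 4.35. The site nearest the 5′ end, at chr1:59249419-59249571, held 6 peaks with log2 folds from 3.75 to 4.30. No RBFOX2 peak lay in the 514 bases before the second crest, the longest gap in the cluster.

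**Figure D2:**
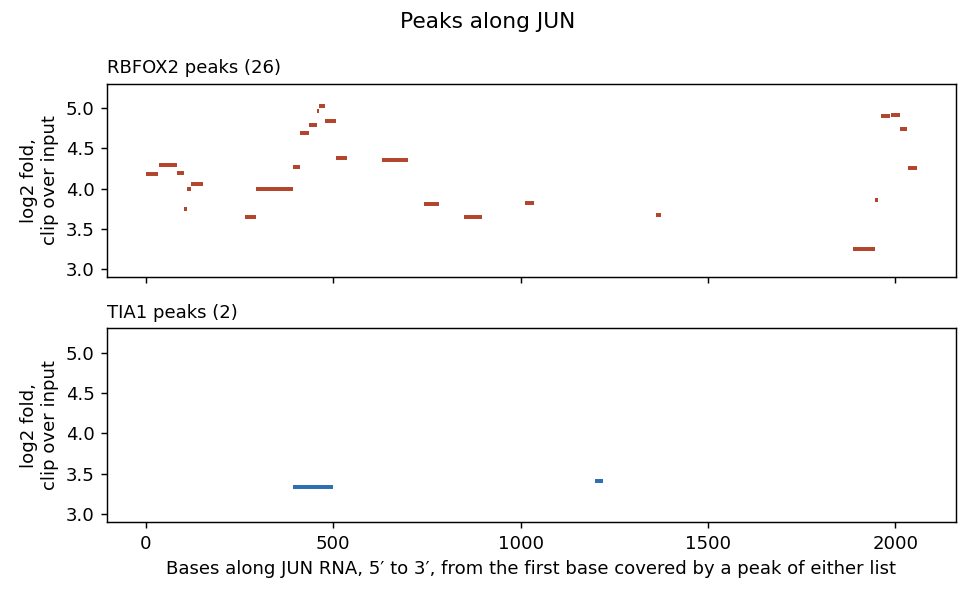
Each bar marks a deposited peak along JUN RNA (x axis, bases from the first covered base, 5′ to 3′) at its log2 fold of clip over input (y axis), with RBFOX2 above and TIA1 below. RBFOX2 folds crest at 464 to 477 and at 1989 to 2013 bases, and the longer of the 2 TIA1 peaks lies under the first crest.

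TIA1 had 2 peaks in JUN, both near the middle of its list by fold. The 106-base peak at chr1:59249074-59249179 had a log2 fold of 3.33 and a −log10 p of 30.4. The 22-base peak at chr1:59248352-59248373 had a log2 fold of 3.41 and a −log10 p of 6.90. The median log2 fold of the TIA1 list is 3.36, so neither peak stood far from it. The RBFOX2 and TIA1 folds come from separate immunoprecipitations of unknown depth and yield, and a higher fold for one protein at a site does not show that it binds the site more.

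The longer TIA1 peak coincided with the first RBFOX2 crest. It overlapped 6 RBFOX2 peaks, whose log2 folds were 4.27, 4.68, 4.78, 4.96, 5.02 and 4.83 in 5′ to 3′ order. These include the 5 highest RBFOX2 folds of that site. The TIA1 peak began, on the RNA, at the base after the RBFOX2 peak with a −log10 p of 400. The shorter TIA1 peak overlapped no RBFOX2 peak, and the nearest was 141 bases away. By bases, 105 were covered by both lists in JUN, which is 13.5% of the RBFOX2 bases and 82.0% of the TIA1 bases there, against 15.9% and 23.5% over the whole lists. All 105 lie in the longer TIA1 peak, so the 82.0% rests on 1 peak.

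JUND held peaks of both proteins, with a lower median RBFOX2 fold than JUN. Its single-exon transcript JUND-201 is encoded on the minus strand of chromosome 19. The 4 RBFOX2 peaks covered 133 bases of the 388 in chr19:18391723-18392110, and the 7 TIA1 peaks covered 342 bases of the 632 in chr19:18391786-18392417. The RBFOX2 log2 folds in 5′ to 3′ order were 3.29, 3.01, 3.46 and 3.24. The TIA1 log2 folds in the same order were 3.47, 3.71, 3.01, 3.27, 3.86, 3.54 and 3.08. All 11 peaks stayed under a log2 fold of 4, a level that 19.3% of RBFOX2 peaks and 9.21% of TIA1 peaks reached. The median was 3.26 for RBFOX2 in JUND, under the list's 3.48, and 3.47 for TIA1 in JUND, above that list's 3.36.

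Most RBFOX2 peaks lay toward the 3′ end of the covered stretch of JUND, and most TIA1 peaks toward its 5′ end. The 3 RBFOX2 peaks nearest the 3′ end formed a site at chr19:18391723-18391848, and the peak with the highest RBFOX2 fold there, 3.46 or 11.0-fold, was at chr19:18391731-18391777, which also had the highest RBFOX2 −log10 p in the gene, 18.0. The 5 TIA1 peaks nearest the 5′ end formed a site at chr19:18392167-18392417 with no RBFOX2 peak in it, and the peak with the highest TIA1 fold there, 3.86 or 14.5-fold, was at chr19:18392167-18392203. For TIA1 the highest −log10 p, 17.9, belonged to the peak at chr19:18392275-18392344, whose log2 fold of 3.01 was the lowest of the 7. Fold and −log10 p thus picked out different TIA1 peaks.

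The proteins met in JUND at 1 place. The RBFOX2 peak at chr19:18391787-18391848 lay wholly within the TIA1 peak at chr19:18391786-18391856, and both had folds near the lower limit of their list, with log2 folds of 3.01 for RBFOX2 and 3.08 for TIA1. The 62 shared bases are 46.6% of the RBFOX2 bases and 18.1% of the TIA1 bases in JUND, against 15.9% and 23.5% over the whole lists. Both JUND shares rest on 1 peak of each list. All 4 RBFOX2 peaks in JUND and 6 of the 7 TIA1 peaks had a −log10 p of at least 10, a level reached by 29.1% of the RBFOX2 list and 33.3% of the TIA1 list.

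**Figure D3:**
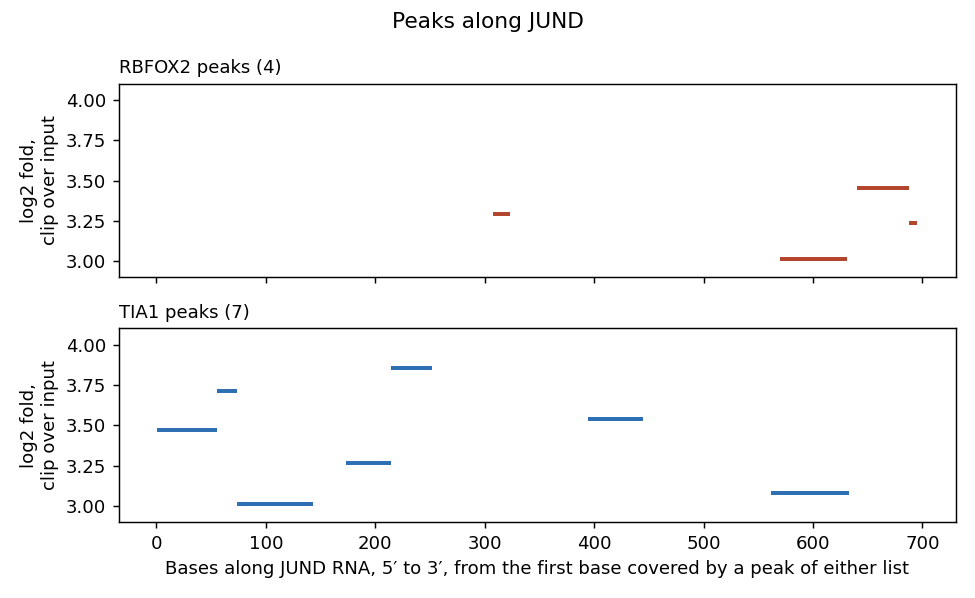
Each bar marks a deposited peak along JUND RNA (x axis, bases from the first covered base, 5′ to 3′) at its log2 fold of clip over input (y axis), with RBFOX2 above and TIA1 below. The 5 TIA1 peaks within the first 251 bases overlap no RBFOX2 peak, the nearest being 57 bases away, and the lists overlap between 570 and 631 bases.

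By number of peaks, the JUND cluster stood high in the TIA1 list and less so in the RBFOX2 list. In the RBFOX2 list 10.6% of clusters held at least 4 peaks, the size in JUND, which was tied with the other clusters of 4 at rank 156 of 2218. In the TIA1 list 0.906% of clusters held at least 7 peaks, and JUND was 1 of 7 clusters tied at rank 13 of 2096. By bases covered, JUND ranked only 850 in the RBFOX2 list, against 22 in the TIA1 list. With peaks within 50 bases joined, its 2 RBFOX2 sites were tied at rank 114 and its 3 TIA1 sites at rank 13. The TIA1 clusters with most peaks were chr19:54965609-54969137 (plus strand) and chr8:145623225-145626100 (minus), with 18 peaks each, followed by chr1:109642956-109643152 (plus) with 16. JUN, first by RBFOX2 peaks, had a TIA1 cluster of 2 peaks that was tied at rank 232.

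IER2 had a single, weak and broad RBFOX2 peak. It was 173 bases wide, at chr19:13264434-13264606 on the plus strand, with a log2 fold of 3.06, or 8.36-fold, and a −log10 p of 4.39. Of the RBFOX2 list, 92.6% of peaks had a fold at least as high. No TIA1 peak lay in the IER2 span, and the nearest on that strand was 211 kb away. The fold of the IER2 peak lay close to the lower limit of the list, and 77.6% of the list had a −log10 p at least as high. The peak was lost when a −log10 p of at least 5 was required.

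**Figure D4:**
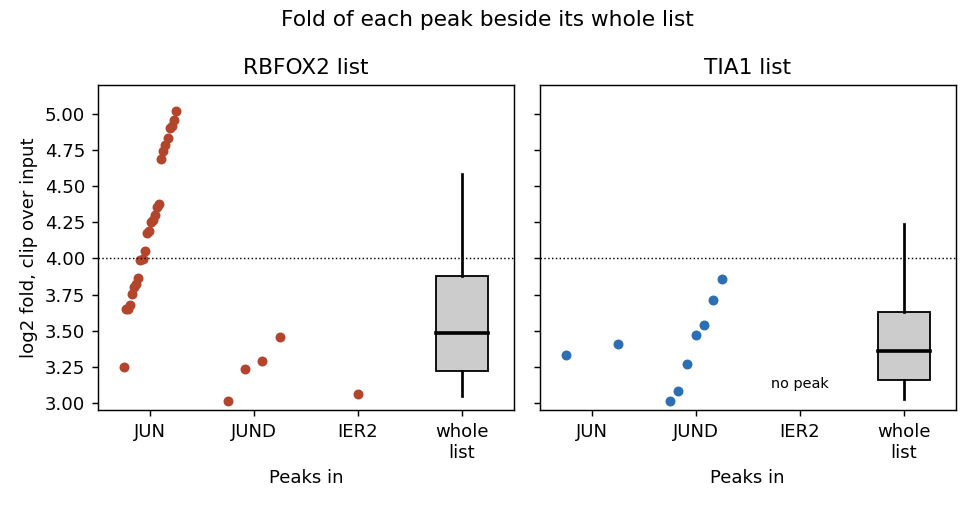
Log2 fold of clip over input of every peak in JUN, JUND and IER2 (points, spread sideways for legibility) beside its whole list (box from the 25th to the 75th percentile, line at the median, whiskers from the 5th to the 95th), with RBFOX2 left and TIA1 right. Of the JUN peaks of RBFOX2, 16 lie above the dotted line at 4, and none of the other points does.

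Over all 8 genes, peaks of one protein met the other about as often as in the whole lists. An overlap with TIA1 of at least 1 base on the strand was found for 7 of the 31 RBFOX2 peaks, or 22.6% (95% Clopper-Pearson interval 9.59 to 41.1%), against 21.7% of the list. An overlap with RBFOX2 was found for 2 of the 9 TIA1 peaks, or 22.2% (95% interval 2.81 to 60.0%), against 24.0% of the list. The intervals cover counting only, and neighbouring peaks of 1 RNA are not independent. Of the 7 RBFOX2 peaks, 6 lay under 1 TIA1 peak in JUN. With peaks within 50 bases joined, 2 of 10 RBFOX2 sites and 2 of 5 TIA1 sites overlapped. The shares of unjoined peaks are near the background and are no result about the genes. For joined sites no share over the whole lists was computed.

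The summary over all 8 genes rests on JUN for RBFOX2. The median log2 fold of the 31 RBFOX2 peaks was 4.05, and that of the 5 peaks outside JUN was 3.24, so the high RBFOX2 folds were those of JUN. For TIA1 the median of the 9 peaks was 3.41, and 3.47 for the 7 outside JUN.

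No span edge cut through a group of peaks. The nearest RBFOX2 peak outside a span on the same strand was 33.8 kb away, beside JUND, and the nearest TIA1 peak was 27.6 kb away, also beside JUND. For JUN these distances were 3614 kb in the RBFOX2 list and 3565 kb in the TIA1 list. In the GENCODE annotation no other gene overlaps any of the 8 genes on the same strand. HOOK2 overlaps JUNB and AC011446.2 overlaps IER2 on the opposite strand.

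Exon number was looked up after the peaks were seen. The longest mRNAs of JUN, JUND and IER2, the 3 genes with a peak, each have 1 exon. JUND and IER2 also have annotated transcripts with an intron. JUNB, with 0 peaks, has 1 exon too, and FOS, MYC, EGR1 and ATF4, also with 0 peaks, have 2 to 4. Thus 4 of the 8 genes have 1 exon in the longest mRNA, as do 3 of 20 further genes of the same pathways, named below. Of the longest mRNAs of all 19677 protein-coding genes 5.93% have 1 exon. With 3 genes this is a description, and its relation to the peaks was not tested.

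GCATG matches did not cleanly separate the genes with RBFOX2 peaks from those without, although the medians differed. JUN had 5 matches in 3540 bases, JUND 3 in 1863 bases and IER2 4 in 2934 bases. Among the genes without an RBFOX2 peak, EGR1 had 6 matches in 3138 bases, FOS 4 in 2158 bases and MYC 1 in 2366 bases, while JUNB and ATF4 had 0. The counts of EGR1 and FOS thus lie within or above the range of 3 to 5 seen in the genes with a peak. The median was 4 matches, or 1.41 per kb, in the 3 genes with an RBFOX2 peak. It was 1, or 0.423 per kb, in the 5 without. Per kb, EGR1 had 1.91 and FOS 1.85, above each of the 3 genes with a peak. Empty spans are not shown to lack binding, so bound and unbound genes were not compared. At least 1 GCATG occurs in 85.7% of the longest mRNAs of all protein-coding genes. Of the 2109 mRNAs within 10% of the length of JUN, 95.2% hold at least 1 and 21.8% hold at least 5, so the JUN count is not rare. The longer form TGCATG occurs 1 time in JUN and 1 time in MYC, 2 times in EGR1 and in none of the other 5. TGCATG contains GCATG, and its matches are among those counted above.

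**Figure D5:**
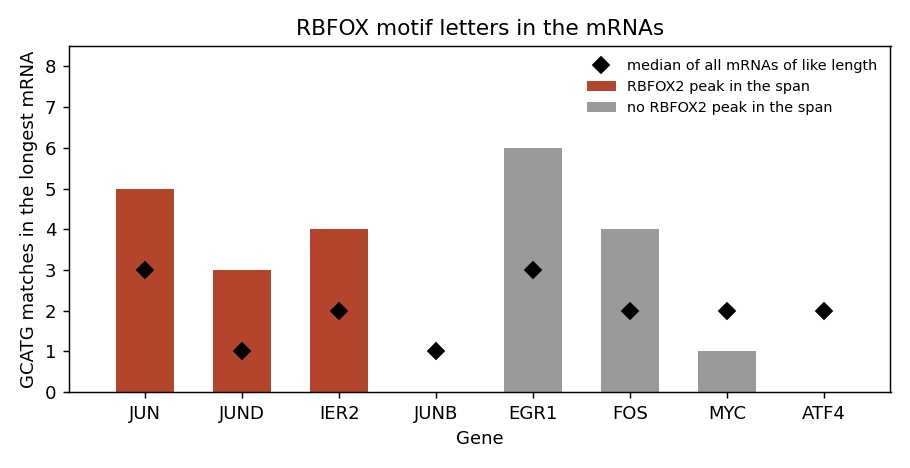
Number of GCATG matches in the longest GENCODE mRNA of each gene (bars, red for genes with an RBFOX2 peak and grey for genes without), and the median over all mRNAs within 10% of that length (diamonds). EGR1, without a peak, has 6, more than the 5 of JUN.

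Runs of at least 5 T, counted for TIA1, did not follow the peaks. JUN and JUND had 3 runs each, against medians of 6 and 2 in mRNAs of like length. Of the genes without a TIA1 peak, MYC had 9, EGR1 8, IER2 6, FOS 4, JUNB 3 and ATF4 0. MYC, EGR1, IER2 and FOS thus held more T runs than either gene with TIA1 peaks. Per kb, JUN had 0.847 runs and JUND 1.61, and of the genes without a TIA1 peak only ATF4, with 0, had fewer. Whether any GCATG or T run lies under a peak was not tested, because the transcripts are placed on GRCh38 and the peaks on hg19. A further 20 genes of the same pathways (FOSB, FOSL1, FOSL2, ATF3, MYCN, MYCL, MAX, EGR2, EGR3, IER3, IER5, IER5L, DUSP1, BTG2, KLF2, KLF6, SRF, NR4A1, DDIT3 and DDIT4) had no hg19 span at hand, and their peaks were not analysed here. In their longest mRNAs the number of GCATG matches ranged from 0 in ATF3, DUSP1 and IER3 to 10 in EGR3, with a median of 2.5, and the median over the 8 genes was 3.5.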

How the data were processed

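Per the labels, the libraries are eCLIP clip and input RNA of HEK293T cells. Per the submitters' processing notes, UMI-tools 1.0.0, cutadapt 1.14, STAR 2.4.0i, SAMtools 1.6 and the hg19 build were used, with no role given. The sources used here do not name the peak caller. Each deposited list has no header. Its columns were read from their ranges as the authors' −log10 p-value and the authors' log2 fold of clip over input, the latter because the labels tie each list to clip and input libraries. Depth is unknown because no read counts are in the lists. Coordinates are 1-based in hg19.

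Peaks were assigned to genes by overlap of at least 1 base with the span on the strand. The genes and lists were chosen with earlier results of these data known. Peaks named are, per gene and list, those with the highest −log10 p and the highest log2 fold, with the first and last base covered, and the 3 largest other clusters per list. The other peaks of JUN and JUND that the text gives were added after their values were seen, as were the exon, GCATG and T-run counts. Shares have 95% Clopper-Pearson intervals. No test was run, since the genes were chosen by the peaks. Alternatives were other limits on fold, −log10 p and width, joining of peaks within 50 bases, other span edges and overlap rules, and leaving out JUN. Transcripts are GENCODE 29 (GRCh38), used for sequence and structure only. Counting was checked on simulated data. Software was matplotlib 3.10.9, scipy 1.17.1, numpy 2.4.6 and pandas 2.3.3 under Python 3.11.15.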

Additional observations from a re-analysis of the deposited data

How the results depend on the processing

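Of 58 values under the alternatives, 46 stayed close to the reported ones (counts within 1.5 times, medians within 1 SD over the peaks, shares within their interval). This tally is no measure of robustness. The interval of the TIA1 share runs from 2.81 to 60.0%, so 40% after joining and 11.1% at a 50% overlap both counted as close. Requiring a log2 fold of at least 4 in both lists left 16 RBFOX2 peaks, in 1 gene (JUN), and 0 TIA1 peaks in 0 genes, so no TIA1 median or share exists there. The RBFOX2 share that overlapped TIA1 was then 0% by construction, since no TIA1 peak was left in these genes, and in the full TIA1 list 6 of the 16 do overlap a peak. Joining peaks within 50 bases left 10 RBFOX2 and 5 TIA1 sites. Without the JUN span, an alternative chosen after seeing the data, 5 RBFOX2 peaks with a median log2 fold of 3.24 remained, and TIA1 peaks were left in 1 gene (JUND). On the opposite strand 0% of RBFOX2 and 0% of TIA1 peaks overlapped. The lower counts follow from how these alternatives are made. Requiring a −log10 p of at least 5 removed the IER2 peak and left 30 RBFOX2 peaks. Widening the spans by 1 kb at each end, or requiring peaks wholly inside them, changed no count. The widening could not change one, since the nearest peak outside a span was 27.6 kb away. No paired analysis was possible because the lists give no value per replicate, and leaving out a replicate could not be done either. The pathway list could not be searched for peaks without an hg19 annotation.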
